A study of Mus musculus with 4 samples.

Results

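The collagen genes of mouse intestinal tissue are described here across 4 RNA-seq libraries. A gene was a member if its symbol in the files was Col, a number, the letter a and a number. This gave 44 genes with 227 transcripts, of 55203 genes with 141738 transcripts. Of these, 17 had a mean of at least 1 FPKM (fragments scaled by transcript length and by mapped fragments) and could be tested, and the other 27 are given by their levels only. All tissue came from adult male wild-type C57BL/6NTac mice of 8 to 12 weeks, kept specific-pathogen-free. For 2 libraries (RVC 1 and 2) the label gives processing with 4 mM ribonucleoside vanadyl complex, an inhibitor of ribonucleases, and for 2 others (fresh frozen 1 and 2) it gives freezing. The only protocol text, attached to every library, describes an RVC rinse, so the freezing is known from the label alone. The study sought a bulk measurement to set beside MERFISH, an imaging method that counts transcripts in tissue sections.

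The sample labels name ileum, whereas the protocol and the design text name distal colon. Car1, a carbonic anhydrase of colon epithelium, stood at 1655 ± 90.2 FPKM (SD, n = 4), and Hoxb13, a homeobox gene of the hindgut end, at 121.8 ± 16.02. Fabp6, the bile acid binding protein of ileum, stood at 3.37 ± 0.514 FPKM, and Slc10a2, its bile acid transporter, at 2.73 ± 0.400. The ileum label thus goes against the markers, and the tissue is called intestinal here. Relative depth, read from coverage per FPKM, was 81.8% and 79.8% of the deepest library in RVC 1 and 2, 72.6% in fresh frozen 1 and 100% in fresh frozen 2. Each library has a batch number of its own, and the batches cannot be told apart from the groups. The labels do not say that the libraries came from separate animals, so p-values measure only the spread between these samples.

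Collagens are proteins of the extracellular matrix in which 3 chains wind into a triple helix, with glycine as the residue that recurs at the same spacing along each chain. Fibrillar collagens form the rope-like fibrils of the gut wall and its submucosa, and type IV collagens form the sheet of basement membranes under epithelium and around vessels and muscle cells. Type VI chains assemble into beaded filaments near cells, and fibril-associated, multiplexin, short-chain and transmembrane collagens link or organise these networks. Fibroblasts and smooth muscle cells are the main producers in the gut.

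The repeat that all members share can be read in the coding sequence as codons that begin with GG, which encode glycine, at a spacing of 3 codons. The stretches of 24 codons below, from GENCODE vM39 transcripts on GRCm39, are shown because the unbroken repeat of Col1a1, Col3a1 and Col6a1 can be set beside a break in that of Col4a1. Capitals mark the glycine codons, and each stretch is given 5′ to 3′ with the codon numbers of its ends.
Col1a1, codons 228 to 251: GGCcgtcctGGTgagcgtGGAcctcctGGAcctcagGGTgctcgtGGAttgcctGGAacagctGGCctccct
Col3a1, codons 224 to 247: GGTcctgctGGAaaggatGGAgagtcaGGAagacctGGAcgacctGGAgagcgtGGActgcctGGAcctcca
Col6a1, codons 316 to 339: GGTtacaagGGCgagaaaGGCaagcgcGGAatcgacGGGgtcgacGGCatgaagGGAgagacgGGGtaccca
Col4a1, codons 323 to 346: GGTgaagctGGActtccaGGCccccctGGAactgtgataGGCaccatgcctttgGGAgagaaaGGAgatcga
The first 3 stretches keep the spacing throughout, whereas the Col4a1 stretch crosses a break where other codons stand between the glycine codons. A run was counted as at least 5 consecutive triplets that each begin with such a codon. The longest run held 338 triplets in Col1a1, 339 in Col1a2 and 344 in Col3a1. Col4a1 held 16 separate runs, the longest of 40 triplets, and Col4a2 held 22, the longest of 66. Col6a1 and Col6a2 had a longest run of 87 triplets, and Col14a1 and Col12a1 of 32. Fibrillar members with shorter longest runs were Col24a1, with 216, and Col27a1, with 217.

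**Figure D1:**
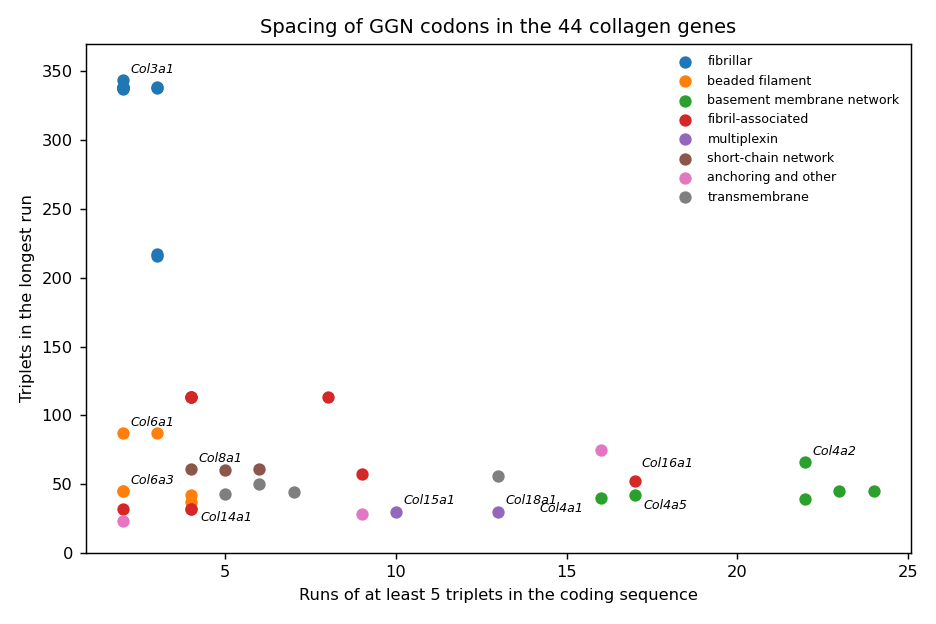
Each point is 1 of the 44 collagen genes, coloured by class, with the number of runs of at least 5 glycine triplets on the x axis and the triplets in its longest run on the y axis. Fibrillar genes sit at the top left, with Col3a1 at 2 runs and 344 triplets, and type IV genes at the lower right, with Col4a2 at 22 runs and 66 triplets.

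Collagen transcripts were few in kind and uneven in level. Summed over the 44 genes, collagen FPKM came to 167.6 and 205.2 with RVC (libraries 1 and 2), and to 115.2 and 188.1 when frozen (libraries 1 and 2). Fresh frozen 1 was the lowest library, and fresh frozen 2 lay between the RVC libraries. These sums were 0.0176%, 0.0213%, 0.0136% and 0.0221% of all FPKM. In order of mean, 5 genes stood at 10 FPKM or more, 12 between 1 and 10, 20 between 0.1 and 1, and 7 below 0.1. The 5 highest, Col3a1, Col1a2, Col4a1, Col6a1 and Col1a1, held 65.5% of the collagen sum. FPKM is scaled by transcript length, but gene sums include short annotated transcripts whose share differs between genes. Levels can therefore be compared between genes only roughly.

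**Figure D2:**
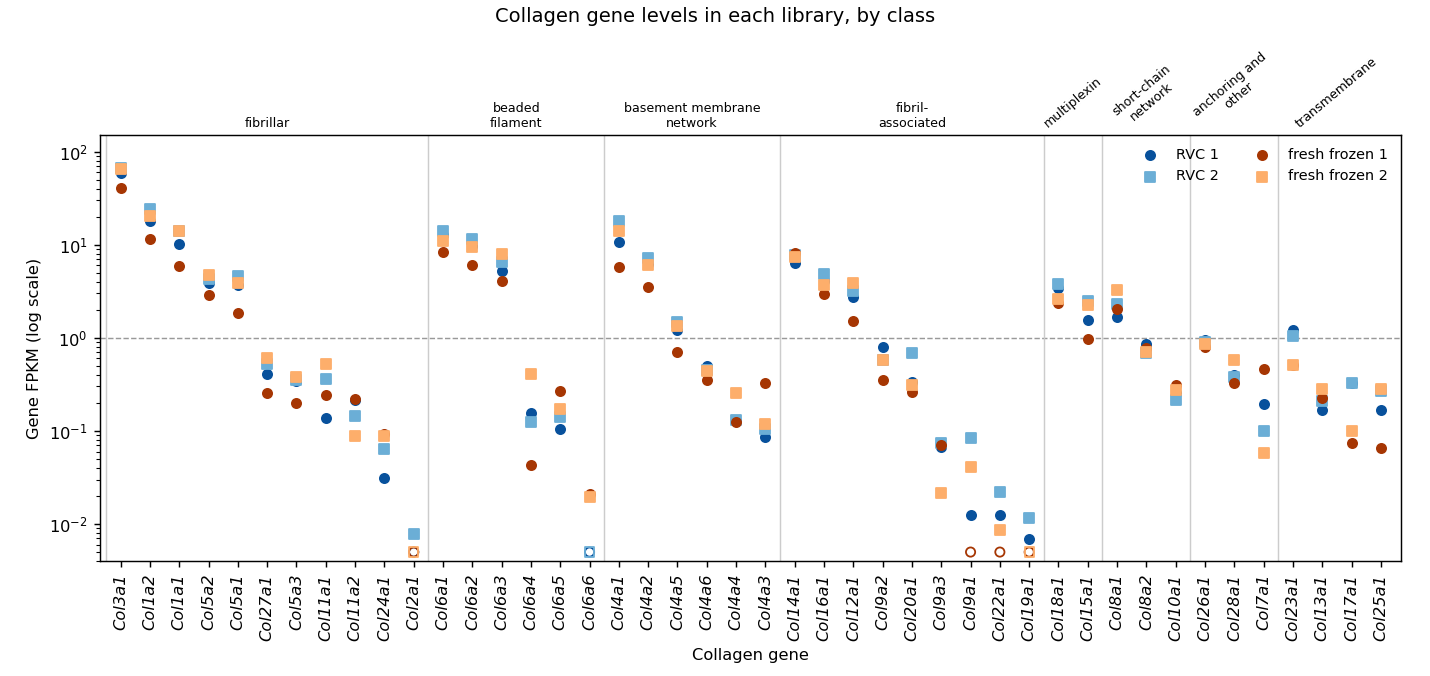
Deposited gene FPKM of the 44 collagen genes on a log axis, grouped by class, with 1 point for each library and a dashed line at 1 FPKM. Open symbols are values below the plot's floor of 0.005 FPKM, drawn at that floor, and fresh frozen 1 is the lowest library for 30 of 44 genes.

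Fibrillar genes were the largest class in each of the 4 libraries. The 11 fibrillar genes held 56.9% and 56.3% of collagen FPKM in RVC 1 and 2, and 55.2% and 58.1% in fresh frozen 1 and 2, a mean of 56.6% ± 1.2005 (SD, n = 4). The 6 beaded filament genes held 15.99% ± 0.502 of the sum. The 6 type IV genes held 11.3%, 13.3%, 9.34% and 11.8% in the same order, a mean of 11.4% ± 1.63. Fresh frozen 1 had the lowest type IV share, and the groups overlapped. For the 9 fibril-associated genes the share was 8.60%, 8.36%, 11.5% and 8.49% in the same order, highest in fresh frozen 1. Multiplexins held 2.59% to 3.09%, and short-chain genes 1.57% in RVC 2 to 2.73% in fresh frozen 1. Anchoring and other genes ran from 0.668% in RVC 2 to 1.38% in fresh frozen 1, and transmembrane genes from 0.625% in fresh frozen 2 to 1.11% in RVC 1. The shares of these last 3 small classes thus differed between libraries about as much as the collagen sum did, or more. No test was made on these shares.

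**Figure D3:**
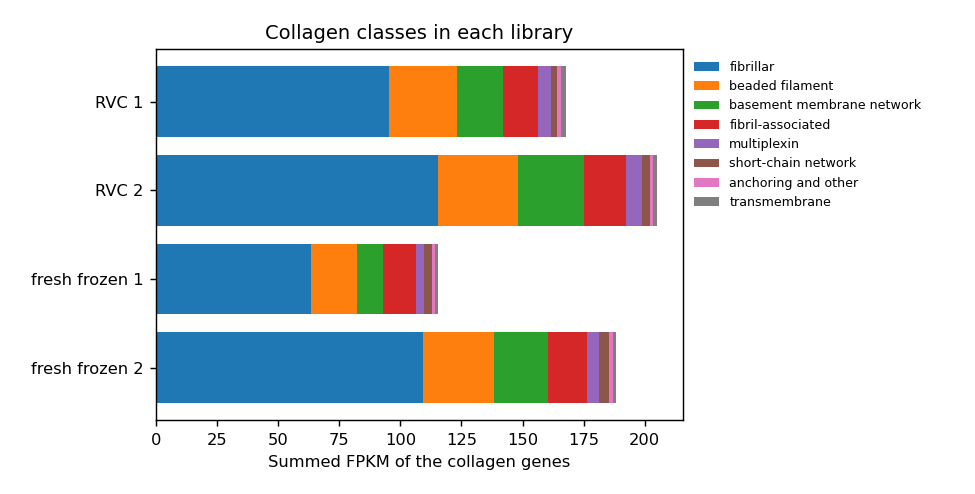
Stacked bars give the summed FPKM of the collagen genes in each library, with 1 colour for each class. The bar of fresh frozen 1 ends at 115.2 FPKM and that of RVC 2 at 205.2, and the fibrillar genes are the longest segment of each bar.

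Among fibrillar genes, Col3a1 (ENSMUSG00000026043; chromosome 1, 45350698 to 45388866, GRCm39) was the highest, encoding the chain of type III collagen of soft, distensible tissue. It stood at 58.7 and 67.0 FPKM in RVC 1 and 2 and at 40.6 and 64.9 in fresh frozen 1 and 2, or 34.2% of collagen FPKM. Fresh frozen 1 was low and the other 3 libraries were close. Col1a2 (ENSMUSG00000029661; chromosome 6, 4504814 to 4541544) encodes the alpha 2 chain of type I collagen. Its values were 17.8, 23.98, 11.4 and 20.1 FPKM, with the RVC pair given before the frozen pair here and from here on. Col1a1 (ENSMUSG00000001506; chromosome 11, 94827050 to 94843868), which encodes the alpha 1 chain of the same molecule, stood at 10.2, 14.1, 5.93 and 13.9 FPKM. Both type I genes were lowest in fresh frozen 1, and in both the groups overlapped.

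A type I molecule usually holds more alpha 1 than alpha 2 chains, but Col1a2 RNA was the higher in each library. The ratio of Col1a2 to Col1a1 FPKM was 1.74, 1.70, 1.92 and 1.44, and with the most abundant transcript of each gene it was 1.55, 1.34, 1.77 and 1.34. Col3a1 exceeded Col1a1 by 5.74, 4.75, 6.85 and 4.65 times, and by 3.93, 3.42, 4.74 and 3.70 times over the most abundant transcripts. The order Col3a1, Col1a2, Col1a1 therefore held in all 4 libraries on both measures. Type V chains, which sit inside type I fibrils and limit their width, were lower. Col5a2 stood at 3.87, 4.32, 2.87 and 4.73 FPKM, and Col5a1 at 3.73, 4.66, 1.83 and 3.85. In RVC 2 Col5a1 was above Col5a2, and elsewhere it was below. The other 6 fibrillar genes had means under 0.5 FPKM, and Col2a1, the collagen of cartilage, was listed at 0 in 3 libraries and at 0.00788 FPKM in RVC 2.

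The type IV genes lie in 3 head-to-head pairs. Col4a1 (ENSMUSG00000031502; chromosome 8, 11248423 to 11362826) and Col4a2 (ENSMUSG00000031503; chromosome 8, 11362805 to 11499287) overlap by 22 bp at their 5′ ends and encode the common chains of basement membranes. Col4a1 stood at 10.8, 17.9, 5.74 and 13.9 FPKM. Col4a2 stood at 6.26, 7.21, 3.52 and 6.03 FPKM. Fresh frozen 1 was lowest for both, and on these gene sums the groups overlapped for Col4a1 but not for Col4a2. The ratio of Col4a1 to Col4a2 was 1.72, 2.48, 1.63 and 2.31 on gene sums, and 1.44, 1.60, 1.00 and 1.41 on the most abundant transcripts.

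Col4a5 (chromosome X, 140258381 to 140472230) and Col4a6 (chromosome X, 139948399 to 140257072) encode chains of the basement membrane around smooth muscle and lie 1308 bp apart. Col4a5 stood at 1.22, 1.496, 0.701 and 1.34 FPKM, and Col4a6 at 0.492, 0.456, 0.354 and 0.436. Col4a5 was the higher of the pair in every library. Col4a3 and Col4a4, on chromosome 1 with 71 bp between them, encode chains best known from the kidney glomerulus. Col4a3 stood at 0.0862, 0.105, 0.325 and 0.119 FPKM and Col4a4 at 0.127, 0.130, 0.126 and 0.255. These levels are too low for an order between the pair.

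The beaded filament genes Col6a1, Col6a2 and Col6a3 encode the chains that join in equal number in type VI collagen. Col6a1 (ENSMUSG00000001119; chromosome 10, 76544626 to 76562002) stood at 12.6, 14.1, 8.33 and 10.9 FPKM. Col6a2 (ENSMUSG00000020241; chromosome 10, 76431596 to 76459464) stood at 9.71, 11.5, 6.00 and 9.38. Both had all RVC values above all fresh-frozen values. Col6a3 (chromosome 1, 90693645 to 90771693) stood at 5.22, 6.56, 4.03 and 8.03 FPKM, highest in fresh frozen 2. The ratio of Col6a1 to Col6a2 stayed at 1.27 ± 0.0958 (SD, n = 4), while that of Col6a1 to Col6a3 was 2.40, 2.14, 2.07 and 1.36. Col6a4, Col6a5 and Col6a6, neighbours on chromosome 9, had means of 0.183, 0.171 and 0.0123 FPKM.

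Of the fibril-associated genes, Col14a1 (ENSMUSG00000022371; chromosome 15, 55171146 to 55384199) was the highest and encodes a collagen on the surface of type I fibrils. It stood at 6.43, 7.67, 8.07 and 7.43 FPKM, and was 1 of 2 tested collagens for which fresh frozen 1 was not the lowest library. Its relative Col12a1 stood at 2.71, 3.16, 1.53 and 3.91 FPKM, with fresh frozen 1 lowest. The ratio of Col14a1 to Col12a1 was accordingly 2.37, 2.43, 5.28 and 1.90. Col16a1 (chromosome 4, 129941633 to 129993076), a collagen found with fibrils and near basement membranes, stood at 4.04, 4.86, 2.93 and 3.68 FPKM with no overlap of groups. Col19a1, the lowest of the class, was at 0.00686 and 0.0117 FPKM in RVC 1 and 2 and listed at 0 in both fresh-frozen libraries.

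The multiplexin Col18a1 (ENSMUSG00000001435; chromosome 10, 76888012 to 77002382) belongs to basement membranes and carries the endostatin domain at its end. It stood at 3.42, 3.83, 2.36 and 2.62 FPKM with no overlap of groups. Its most abundant transcript, which starts at the far upstream end of the gene, stood at 2.47, 3.08, 1.33 and 1.503 FPKM. That was 72.2%, 80.5%, 56.6% and 57.4% of the gene, higher in both RVC libraries. Col15a1, the other multiplexin, stood at 1.53, 2.51, 0.975 and 2.25 FPKM.

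Col8a1, a short-chain collagen of vessel walls, stood at 1.66, 2.33, 2.05 and 3.25 FPKM, and was the other tested collagen not lowest in fresh frozen 1. Col10a1, the lowest short-chain gene and known from growth-plate cartilage, had a mean of 0.265 FPKM. Among anchoring and other genes, means ran from 0.205 FPKM for Col7a1, which anchors basement membrane to stroma, to 0.875 for Col26a1, just below the limit for testing. Of the Col26a1 level, 81.6% came from a 578-nt transcript, 20.8% of the longest in length. The transmembrane collagens ran from 0.196 FPKM for Col25a1 to 0.820 for Col23a1. Col23a1 stood at 1.201, 1.05, 0.511 and 0.512 FPKM, with both RVC values above both fresh-frozen values.

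Some of a gene's level came from annotated transcripts that cover only part of it. Transcripts under 50% of the longest one's length held 31.1%, 28.3%, 32.9% and 19.8% of Col3a1 FPKM and 19.9%, 37.9%, 25.2% and 40.9% of Col4a1 FPKM. A 431-nt Col3a1 transcript was listed at 8.18, 4.63, 5.204 and 0.377 FPKM, and an 850-nt Col1a2 transcript at 1.03, 4.64, 0.459 and 0.546. Short pieces therefore varied between libraries in ways the full-length transcripts did not. The full-length Col3a1 transcript of 5564 nt stood at 40.2, 47.8, 26.9 and 51.6 FPKM. Its Cufflinks bounds in fresh frozen 1, 25.4 to 28.3, lay below those of the other libraries, the nearest being 38.2 to 42.2 in RVC 1. Full-length Col1a1 stood at 10.2, 14.0, 5.66 and 13.9 FPKM, and full-length Col4a1 at 8.51, 11.1, 3.32 and 7.37. Fresh frozen 1 was the lowest library for all 3 full-length transcripts. The most abundant transcript had at least 80% of the longest length in 17 of 17 tested members and in 18 of 27 untested ones.

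Promoters of 250 bases before to 50 after the start of the most abundant transcript were searched on both strands for short motifs. The CCAAT box (CCAAT, or ATTGG on the other strand) is a known element of the type I collagen promoters. It was found in 8 of 17 tested collagens and in 38.1% of 11437 promoters of tested genes. The GC box (GGGCGG) was in 12 of 17 against 62.1%, and the TATA box (TATAAA) in 3 of 17 against 7.7%. Matches of the letters were counted at any position in the window. The TATA matches began at -29 in Col14a1, at -117 in Col3a1 and at 1 in Col1a1, counted from the annotated start. The starts are the deposited ones, and that of Col14a1 differs from GENCODE vM39. The CCAAT match of Col1a2 began at 17, after that start. These windows overlap for Col4a1 and Col4a2. The Col1a1 sequence is printed because it holds a pair of CCAAT boxes, here in the ATTGG orientation and in capitals. The boxes begin at -99 and -73 from the annotated start of the transcript, and the start in this tissue was not measured. It spans chr11:94826920-94827049 on the plus strand of GRCm39.
Col1a1 promoter: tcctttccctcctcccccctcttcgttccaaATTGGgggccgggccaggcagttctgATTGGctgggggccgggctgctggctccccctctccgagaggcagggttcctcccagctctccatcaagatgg

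In the comparison of RVC with fresh-frozen tissue, no collagen gene passed the test. At a limma adjusted p under 0.05, 0 of 17 collagens were called, against 5 of 13775 genes (0.0363%). At an unadjusted p under 0.05 there were 2 collagens, Col6a1 and Col18a1, against 18.4% of all genes. For 5 collagens (Col6a1, Col6a2, Col4a2, Col16a1 and Col18a1) all RVC values were above all fresh-frozen values, against 26.5% of all genes. For 0 collagens they were all below, against 26.6%, so 5 of 17 had groups apart in either direction, against 53.2%. The share with groups apart was thus no larger than the background. The median log2 fold change of the 17 was 0.35, beside 0.0062 over all genes tested, and 15 of 17 were above 0, against 51.0% of all genes. Without the filter on low values the median over all 44 collagens was 0.0503, with 31 above 0 and 13 below. Fold changes are on the scale of log2(scaled FPKM + 1), which understates those of low genes.

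Col4a1 had the highest log2 fold change of the 17, 0.58 (SE 0.373, limma adjusted p = 0.423), with groups that overlapped on gene sums. With its most abundant transcript, which is full-length, the groups did not overlap and the log2 fold change was 0.85 (limma adjusted p = 0.238). Another Col4a1 transcript, of 98.1% of that length, went the other way, at 0.123, 0.00152, 0.965 and 0.866 FPKM. The value of 0.85 thus depends on how Cufflinks divided the level between these transcripts. Col6a1 had 0.44 (SE 0.154, limma adjusted p = 0.210) and Col18a1 0.41 (SE 0.140, limma adjusted p = 0.206), both without overlap. Col6a2 had 0.45 and Col4a2 0.46, with limma adjusted p-values of 0.290 and 0.303. Of the type I and III genes, Col1a2 had 0.42, Col1a1 0.36 and Col3a1 0.29, with limma adjusted p-values of 0.399, 0.580 and 0.483. Col14a1, at -0.12, and Col8a1, at -0.27, were the members below 0, with limma adjusted p-values of 0.637 and 0.493. In bulk tissue, fewer cells of a type and less RNA per cell cannot be told apart. The smallest p an exact permutation test of 2 against 2 libraries allows is 0.333, so none was used.

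The direction of the median turned when fresh frozen 1 was left out. Among the 17 collagens, 15 were lowest in that library, against 27.8% of all genes, and 13 were at least 1.5 times higher in fresh frozen 2 than in fresh frozen 1, against 5.78%. Fresh frozen 2 was above fresh frozen 1 in 16 of 17, against 49.6%, and lay between the RVC libraries in 8, against 22.6%. The median difference between the fresh-frozen libraries was 0.66 on the log2 scale, larger than the 0.35 between groups. Between the RVC libraries it was 0.22, with RVC 2 above RVC 1 in 17 of 17 collagens, against 52.0% of all genes, and at least 1.5 times above in 2, against 3.59%. RVC 2 was the highest library for 12 of 17, against 21.4%. RVC 1 lay 0.54 above fresh frozen 1, and its median difference from fresh frozen 2 was -0.18. Without fresh frozen 1 the median log2 fold change was -0.011, and without fresh frozen 2 it was 0.63. Without fresh frozen 1 the log2 fold changes of Col1a1, Col5a2, Col3a1, Col4a1 and Col6a3 were -0.21, -0.18, -0.06, -0.011 and -0.41.

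**Figure D4:**
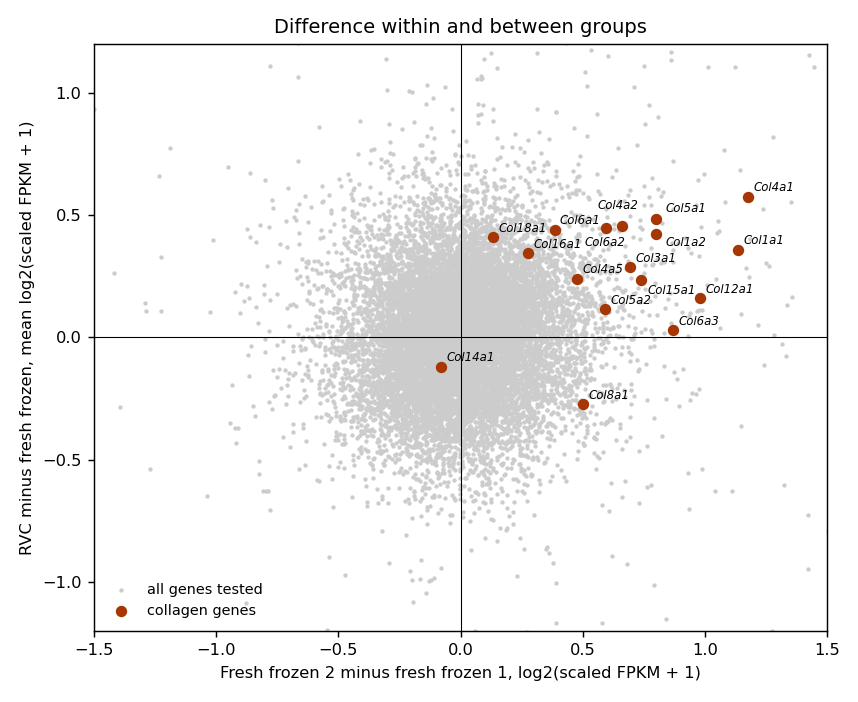
Each point is a tested gene, with fresh frozen 2 minus fresh frozen 1 on the x axis and RVC minus fresh frozen on the y axis, both in log2(scaled FPKM + 1). The 17 collagens are named and have medians of 0.66 and 0.35 on these axes, and 106 genes lie outside them.

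Transcript length moved with the difference between the frozen libraries, and GC content with the difference between groups. Over all tested genes, the median of fresh frozen 2 minus fresh frozen 1 was -0.079 for longest transcripts under 2000 nt and 0.11 for those of at least 6000 nt. Between groups, the median was 0.023 and -0.019 in the same strata. All 17 collagens had transcripts of 4100 nt or more. Of the 4454 genes of at least 4000 nt, 34.3% were lowest in fresh frozen 1 and 6.51% were at least 1.5 times higher in fresh frozen 2, beside 15 and 13 of the 17 collagens. For GC content, the median log2 fold change between groups was -0.19 in genes under 45% and 0.18 in genes of at least 55%. For fresh frozen 2 minus fresh frozen 1 it was -0.0027 and 0.013. The collagens ran from 46.8% to 61.3% GC, and 10 of them were in the highest stratum. There, 43.5% of 2921 genes were lowest in fresh frozen 1, and 10 of 10 collagens were. The part of length or GC content in the collagen values was not tested.

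Genes of the collagen pathway, in 7 lists, did not pass the test either: 0 members of any list had a limma adjusted p under 0.05. Modifying enzymes and chaperones, which hydroxylate and fold the chains, had 13 of 21 tested members above 0 and a median log2 fold change of 0.15. P4hb, a subunit of prolyl 4-hydroxylase, stood at 106, 104, 110 and 107 FPKM, and Ppib, a cyclophilin that aids folding, at 51.9, 55.3, 59.0 and 57.1. In this list 11 of 21 tested members were lowest in fresh frozen 1, against 27.8% of all genes, but P4hb and Ppib were not. P4hb and Ppib had all RVC values below all fresh-frozen values. Propeptide processing and cross-linking genes had 8 of 9 above 0, a median of 0.25 and 7 of 9 lowest in fresh frozen 1. Of these, Furin, a proprotein convertase, stood at 14.6, 16.5, 13.6 and 12.3 FPKM and Pcolce, an enhancer of propeptide removal, at 14.1, 12.2, 8.34 and 9.81. Pcolce was lowest in fresh frozen 1 with no overlap of groups.

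Fibril-binding matrix proteins had 10 of 15 above 0, a median of 0.081 and 10 of 15 lowest in fresh frozen 1. Dcn, the small proteoglycan decorin, stood at 83.2, 94.3, 112 and 72.1 FPKM, highest in fresh frozen 1, and Sparc, a collagen-binding glycoprotein, at 47.4, 60.2, 36.7 and 46.8. Basement membrane partners had 3 of 4 above 0, a median of 0.15 and 3 of 4 lowest in fresh frozen 1, with Agrn (agrin) at 6.36, 6.16, 4.95 and 5.70 FPKM and Nid1 (nidogen) at 4.70, 6.04, 4.29 and 5.68. Degradation genes and their inhibitors had 5 of 8 above 0, a median of 0.21 and 4 of 8 lowest in fresh frozen 1. Timp3 and Timp2, inhibitors of matrix metalloproteinases, stood at 26.2, 30.4, 19.4 and 14.99 FPKM and at 19.9, 22.4, 15.1 and 15.1. Both had all RVC values above all fresh-frozen values. Collagen receptors had 3 of 5 above 0 and a median of 0.11, with the integrin chain Itgb1 at 43.1, 54.3, 54.1 and 58.1 FPKM and the kinase Ddr1 at 23.6, 18.5, 19.3 and 17.5. TGF-beta signal genes had 8 of 11 above 0 and a median of 0.24, with Smad4 at 25.2, 26.7, 28.4 and 28.1 FPKM and Smad2 at 25.2, 28.9, 23.96 and 21.6. Smad4 had all RVC values below all fresh-frozen values, and Smad2 had them all above. The median of fresh frozen 2 minus fresh frozen 1 ran from 0.017 for the TGF-beta list to 0.28 for the basement membrane partners, beside 0.66 for the collagens. Of the receptors 2 of 5, and of the TGF-beta genes 5 of 11, were lowest in fresh frozen 1. At an unadjusted limma p under 0.05 there were, in the order of these lists, 4, 2, 4, 0, 3, 1 and 3 members, beside 18.4% of all genes. Without overlap, 9, 5, 5, 2, 4, 1 and 8 members, in the same order, were higher with RVC, against 26.5% of all genes. Lower with RVC without overlap were 6, 1, 2, 0, 0, 0 and 2 members, against 26.6%.

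**Figure D5:**
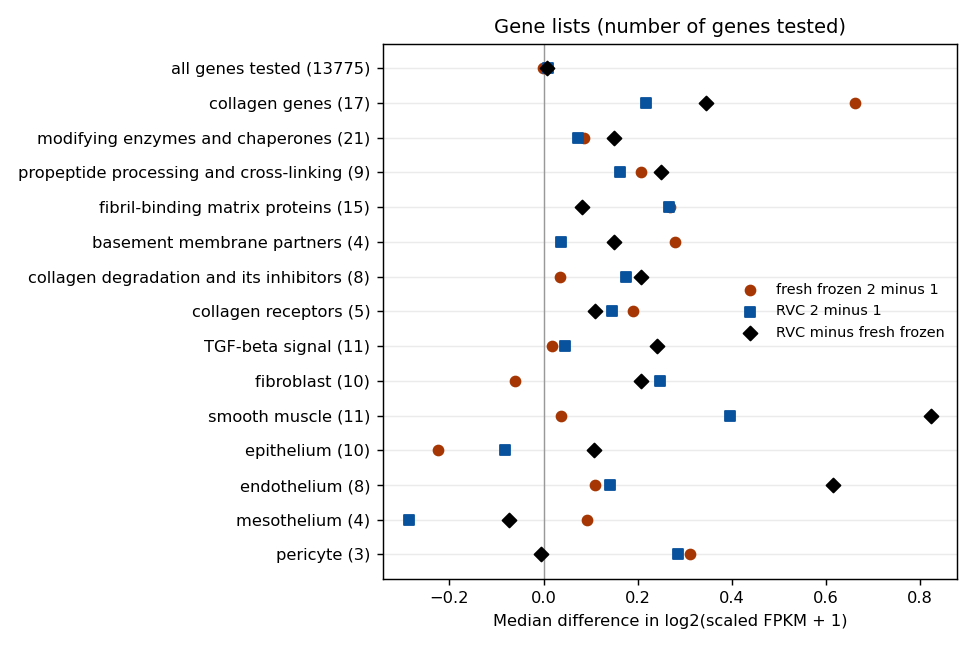
Median differences in log2(scaled FPKM + 1) for the gene lists with at least 3 tested genes, with circles for fresh frozen 2 minus 1, squares for RVC 2 minus 1 and diamonds for RVC minus fresh frozen. The collagen circle stands at 0.66, and the diamond of the smooth muscle markers at 0.82.

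Among markers of cell types in the tissue, those of smooth muscle and endothelium stood apart between groups, without passing the test. All 11 smooth muscle markers had RVC values above fresh-frozen values, against 26.5% of all genes, with sums of 1394.5, 2051, 894.5 and 928.7 FPKM and a median log2 fold change of 0.82. All 8 tested of 9 endothelial markers did so too, with sums of 100.6, 122.4, 52.7 and 55.2 FPKM and a median of 0.61. In both lists the fresh-frozen libraries were close to each other, whereas collagens differed between them. The 10 fibroblast markers summed to 175.2, 209.3, 197.7 and 151.5 FPKM, and 4 of them were lowest in fresh frozen 1. Of the 10, 8 were above 0, their median was 0.21 on the log2 scale, and 6 were higher with RVC without overlap. Dcn carried much of their sum, and the other 9 summed to 92.0, 115.1, 85.3 and 79.4 FPKM, with both frozen libraries below both RVC libraries. The 10 epithelial markers summed to 8119, 7704, 8113 and 6473 FPKM, and 5 of them were higher with RVC without overlap. All 10 had a log2 fold change above 0, against 51.0% of all genes, with a median of 0.11. Mesothelial and pericyte markers had medians of -0.074 over 4 and -0.0051 over 3 tested genes, and 1 of 5 glial markers could be tested, at 0.27 and higher with RVC without overlap. Without overlap, 2 mesothelial markers were lower with RVC, against 26.6% of all genes, and 1 pericyte marker was higher. No marker list had a member with a limma adjusted p under 0.05, and at an unadjusted p under 0.05 there were 11 smooth muscle, 7 endothelial, 3 fibroblast and 1 pericyte markers, against 18.4% of all genes. The part of cell composition in the collagen values was not tested.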

How the data were processed

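The authors deposited FPKM values per transcript, with lower and upper FPKM bounds, transcript lengths and a coverage signal, per the file headers. Alignment with TopHat2 2.1.1 to GRCm39 and estimation with Cufflinks 2.2.1 come from the submitters' processing notes. The annotation release and strand setting are not given in the sources used here. Depth in reads is unknown, so no interval from counts is given.

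Gene FPKM was the sum over transcripts. Libraries were scaled by median ratio, and log2(scaled FPKM + 1), a pseudocount of 1, was analysed with limma 3.58.1 in R 4.3.3 (two-sided, with trend, Benjamini-Hochberg over 13775 genes, threshold 0.05). Tested genes had a mean scaled FPKM of at least 1, a longest transcript of at least 300 nt and status OK throughout. The test was tested on simulated data. Tables used Python 3.11.15, pandas 2.3.3 and matplotlib 3.10.9. Coding sequences and GC content (99.3% of tested genes) came from GENCODE vM39 on GRCm39. Promoters were cut from GRCm39 at the deposited transcript starts, with the strand from GENCODE vM39. For some collagens the deposited start differed from that in GENCODE vM39.

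The members, the 7 pathway lists (modifying enzymes, processing, fibril-binding, basement membrane partners, degradation, receptors, TGF-beta) and the markers were chosen with earlier results of these data known. Named collagens were the 12 highest, up to 4 largest differences in each direction without overlap, partners in head-to-head pairs, and the highest and lowest of each class. Col12a1, Col24a1 and Col27a1 were added after their values were seen. Col6a4 and Col6a5, named as neighbours of Col6a6, also fall outside this rule. Of each pathway list the 2 highest were named. Alternatives were another pseudocount, scaling, filters, transcript choices, no trend, a replicate block and each library left out.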

Additional observations from a re-analysis of the deposited data

How the results depend on the processing

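No collagen gene passed the limma threshold under any alternative run (at an unadjusted p under 0.05, 2 as reported, 8 with the replicate block, 0 without RVC replicate 2 and 15 without fresh frozen replicate 2), and 195 of 204 values of the 14 named and tested collagens kept their direction. This count leaves out Col8a1, Col12a1 and Col15a1, which were also tested and are named above. The 9 that turned were, with the most abundant transcript, Col14a1 (0.0409), Col16a1 (-0.0705) and Col6a3 (-0.0053), without RVC replicate 2 Col6a3 (-0.11), and without fresh frozen replicate 1 Col1a1 (-0.21), Col5a2 (-0.18), Col3a1 (-0.0590), Col4a1 (-0.011) and Col6a3 (-0.41). Without fresh frozen replicate 2, the highest of their leave-one-out values, Col1a1 had 0.93, Col5a2 0.41, Col3a1 0.63, Col4a1 1.16 and Col6a3 0.46. The collagen median log2 fold change was 0.0503 over 44 genes with no filter, and ran from -0.011 without fresh frozen 1 to 0.63 without fresh frozen 2. Over all genes, 5 passed, and 0 passed with no filter on low values (3531 at an unadjusted p under 0.05), with transcripts under 300 nt left out (2577) or with no trend (2462). The count was 2 with a mean of at least 5, 2 with the most abundant transcript, and 13 to 25 with 1 library left out, where a lone library is assumed to vary like the other group. Weighting FPKM by length gave a fibrillar share of 55.1%. The cause of these shifts was not tested. Over all genes, same-numbered libraries did not deviate together (r = -0.134 over 13775 genes). The collagens differed from this: RVC 2 was above RVC 1 in 17 of 17, and fresh frozen 2 above fresh frozen 1 in 16 of 17. The shares of all genes were 52.0% and 49.6%. The replicate block called 123 genes and the crossed replicate block, added after seeing the data, 12, with 0 collagens in both. The 27 collagens below the filter were not tested in the fit as reported, and depth in reads is unknown.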

Other observations

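The transmembrane collagen Col17a1, a part of hemidesmosomes in epithelium, was described after its values were seen. It stood at 0.331 and 0.327 FPKM in RVC 1 and 2 and at 0.0739 and 0.0997 in fresh frozen 1 and 2, so the groups did not overlap. A 758-nt transcript, 13.6% of the longest in length, held 56.9% of the gene, at 0.257, 0.210 and 0.00641 FPKM in RVC 1, RVC 2 and fresh frozen 1 and near 0 in fresh frozen 2. The rest of the gene stood at 0.0745, 0.117, 0.0674 and 0.0997 FPKM, where the groups overlapped. Without the filter on low values its log2 fold change was 0.29 (limma adjusted p = 0.402), and that of Col23a1, another transmembrane collagen, was 0.49 (limma adjusted p = 0.402). Both differences were at levels near or below 1 FPKM.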
